A study of Homo sapiens with 6 samples.

Results

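The cytosolic ribosomal protein genes encode the proteins of the small (40S) and large (60S) subunits of the ribosome that translates nuclear messages. They were chosen by name among the protein-coding genes of the table, as symbols of the form RPL or RPS with a number and an optional A, X or L suffix, together with RPSA, RPLP0, RPLP1 and RPLP2. The ribosomal S6 kinases were left out. The rule used no measured value, and it gave 84 of the 58735 genes listed. RNA-seq was made from U251, a human glioblastoma cell line, in 2 groups of 3 libraries. The negative control group (NC) received sterile deionized water in a volume equal to that of the treatment, and the TNF-α group received recombinant human tumor necrosis factor-α at 10 ng/mL, both for 24 h. The comparison addresses the transcriptional effect of this low dose of an inflammatory cytokine. Both groups come from 1 established line, so the replicates are not separate tumours. The labels number them but do not say whether they were grown and treated as separate cultures. Messages were captured with oligo(dT) beads, so that the data are levels of polyadenylated RNA and not of ribosomes or of protein.

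Levels are given as FPKM, the fragments per kilobase of gene length and per unit of a library total. The astrocytic and glioma markers VIM, NES, CD44, SOX2 and SOX9 were detected in all 6 libraries, and S100B was at 0 to 0.168 FPKM. Several differed with the libraries. GFAP was at 7.10 to 9.47 FPKM in NC and at 1.58 to 2.60 in TNF-α, VIM at 325 to 362 in NC, 434 in TNF-α 1 and 974 and 850 in TNF-α 2 and 3, and SOX2 at 58.9 to 66.3 in NC, 57.8 in TNF-α 1 and 22.6 and 30.4 in TNF-α 2 and 3. The leukocyte genes PTPRC and CD3E were at 0 in every library, ITGAM, EPCAM and CDH1 were at or below 0.0494 FPKM, and CD14 and the epithelial gene KRT8 ranged from 0.528 to 1.55 and from 0.443 to 1.40 FPKM. The libraries held 31992167 to 37897044 reads in genes. TNF-α 2 and TNF-α 3 stood apart from the other libraries. With TNF-α 1 left out, 9630 of the 12136 genes tested differed from NC in limma at an adjusted p under 0.05, against 732 with TNF-α 1 alone, where the only spread is that of NC, and 123 with all 3 libraries. The labels give no batch, date or run, so that what separates TNF-α 2 and TNF-α 3 from TNF-α 1 cannot be told apart from treatment in these 2 libraries. TNF-α 1 is therefore shown separately throughout.

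A eukaryotic ribosome holds 1 copy of nearly every one of these proteins, and cells keep their synthesis roughly balanced. Most of the messages begin with a terminal oligopyrimidine (TOP) tract, a run of C and T at the transcription start. The tract places their translation under mTORC1, through the RNA-binding protein LARP1. Ribosomal protein messages are among the most abundant in a growing tumour cell, and free ribosomal proteins can also signal, as RPL5 and RPL11 do when they bind MDM2. A few members are paralogues, such as RPL22L1 or RPL26L1, which resemble another member in sequence.

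Start sites from RefSeq on GRCh38.p14 were matched for 67 of the 84 members by symbol, of which 11 had more than 1 listed start. The start with the longest run of C or T was taken for members and for all other genes alike. The windows below show abundant members, members with large and with small differences in TNF-α 2 and TNF-α 3, and paralogue pairs. Each spans 30 bases, 15 on either side of the start, 5′ to 3′ on the gene's strand. Capitals mark the longest run of C or T that reaches within 5 bases of the start.
RPS12 (chr6:132814554-132814583, plus strand): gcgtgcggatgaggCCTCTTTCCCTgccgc
RPL41 (chr12:56116618-56116647, plus strand): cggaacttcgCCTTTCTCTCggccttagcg
RPLP2 (chr11:809952-809981, plus strand): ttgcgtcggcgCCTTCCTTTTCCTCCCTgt
RPS19 (chr19:41860240-41860269, plus strand): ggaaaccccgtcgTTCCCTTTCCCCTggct
RPLP0 (chr12:120201097-120201126, minus strand): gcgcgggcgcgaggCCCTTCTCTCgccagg
RPL22 (chr1:6199581-6199610, minus strand): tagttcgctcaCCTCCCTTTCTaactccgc
RPL22L1 (chr3:170870181-170870210, minus strand): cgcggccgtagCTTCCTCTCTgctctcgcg
RPL26 (chr17:8383179-8383208, minus strand): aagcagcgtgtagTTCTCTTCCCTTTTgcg
RPL26L1 (chr5:172958714-172958743, plus strand): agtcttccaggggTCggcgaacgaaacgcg
RPL7L1 (chr6:42879601-42879630, plus strand): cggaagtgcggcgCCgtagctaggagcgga
RPL36A (chrX:101390996-101391025, plus strand): tttgcctcgcggTTTCTTTCTTTCCgcgcc
RPS27L (chr15:63157463-63157492, minus strand): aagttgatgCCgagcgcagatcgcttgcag
The run was 11 bases in RPS12, 10 in RPL41, 17 in RPLP2 and 13 in RPS19, and it was 13 in RPL36A, a member whose level did not follow the others. The paralogues were not alike. RPL22 and RPL22L1 carried runs of 11 and 10 bases, whereas RPL26 had 14 and RPL26L1 had 2, as had RPL7L1 and RPS27L. The members' median run was 11 bases, against 4 over all 27305 genes with a listed start. A run of at least 8 bases was found in 50 of 67 members (74.6%) and in 13.7% of all genes. Motifs were searched on both strands of the 300-base region from 250 before to 50 after each listed start. A gene with several listed starts was counted if any of them had the motif. CCGGAAG (a match to the core that ETS factors bind) occurred in 35.8% of members and in 12.2% of all genes, and AAGATGG (a YY1-type motif) in 13.4% and 7.11%. CACGTG, the E-box that MYC binds, was in 7.46% of members and in 8.77% of all genes, and TATAAA was in 10.4% and 14.0%. The run length and the motifs were chosen after values of these data had been seen, and a match is a description of letters only.

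Of the 84 members, 80 reached an FPKM of 1 in 3 or more libraries and were tested. The members lie on 21 chromosomes. Their levels differed widely within each library. The median FPKM over all 84 members was 114, 111 and 119 in NC 1 to 3, 110 in TNF-α 1, 397 in TNF-α 2 and 315 in TNF-α 3. TNF-α 1 lay just below the 3 control libraries, and TNF-α 2 and TNF-α 3 lay far above them.

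Of all reads in genes, the members took 3.22, 3.07 and 3.14% in NC 1 to 3, 2.90% in TNF-α 1, 8.11% in TNF-α 2 and 6.96% in TNF-α 3. The share of reads does not depend on the library total inside FPKM. That total was 0.925 to 0.959 of the reads in genes in NC 1 to 3 and TNF-α 1, 0.693 in TNF-α 2 and 0.759 in TNF-α 3, which raises every FPKM of TNF-α 2 and TNF-α 3 alike relative to a plain read total. These shares are relative, and neither the number of cells nor the RNA per cell is given for these bulk libraries.

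**Figure D1:**
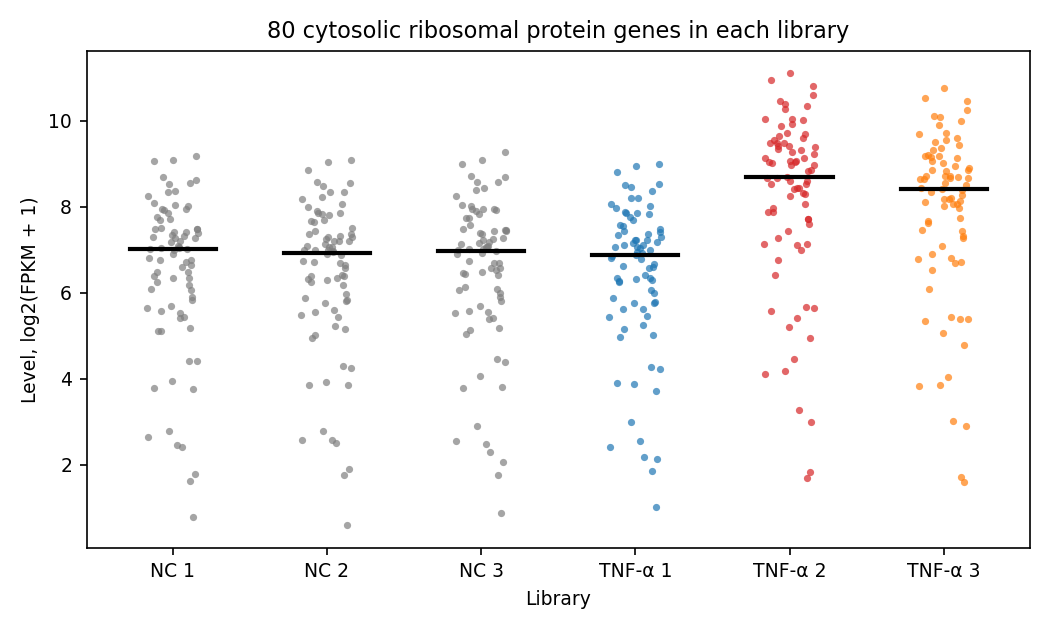
Level of each of the 80 tested cytosolic ribosomal protein genes (points) as log2(FPKM + 1), with the median as a bar, in the 3 NC and the 3 TNF-α libraries. NC 1 to 3 and TNF-α 1 hold the same range, and the clouds of TNF-α 2 and TNF-α 3 sit higher.

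The most abundant members were RPS12 and RPS2, both of the small subunit. RPS12 stood at 547, 529 and 540 FPKM in NC 1 to 3 and at 494, 2201 and 1740 FPKM in TNF-α 1 to 3. RPS2 had 581, 544 and 614 FPKM in NC and 512, 1790 and 1410 FPKM in TNF-α. RPL41, the shortest protein of the set, came next at 530, 465 and 511 FPKM in NC and 445, 1965 and 1472 FPKM in TNF-α. All 3 genes were lowest in TNF-α 1 and highest in TNF-α 2, and their groups overlapped. The order of levels was nearly the same in every library. Over the 80 members, Spearman's rho between the NC mean and the FPKM of TNF-α 1, 2 and 3 was 0.998, 0.973 and 0.983 (a description over genes of the same libraries). The 10 members of highest FPKM took 24.3 to 25.7% of the members' reads in all 6 libraries.

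Both subunits showed the same order of libraries. The ratio of large to small subunit reads was 1.53, 1.55 and 1.55 in NC 1 to 3, 1.56 in TNF-α 1, and 1.49 and 1.5 in TNF-α 2 and TNF-α 3. The log2 ratio of a library to NC was taken as its log2(FPKM + 1) minus the NC mean of that value. Its median over the 32 small subunit members was -0.10, 1.80 and 1.47 in TNF-α 1, 2 and 3, and over the 45 tested large subunit members it was -0.09, 1.77 and 1.44. The 3 acidic stalk genes RPLP0, RPLP1 and RPLP2 had medians of -0.04, 2.06 and 1.69.

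Across the 80 tested members the log2 ratio had a median of 0.02, -0.05 and 0.02 in NC 1 to 3, -0.09 in TNF-α 1, 1.79 in TNF-α 2 and 1.45 in TNF-α 3. Over all 12136 genes it was -0.01 in TNF-α 1, 0.08 in TNF-α 2 and 0.05 in TNF-α 3. In TNF-α 2 and TNF-α 3, 78 of 80 members lay above every NC library, where 46.1% of all genes did so. The same 78 members had TNF-α 2 above TNF-α 3. The log2 ratio reached 1 in 77 members in TNF-α 2 and in 73 in TNF-α 3. TNF-α 1 was unlike TNF-α 2 and TNF-α 3, with 79 of 80 members within 0.25 of the NC mean on the log2 scale. Other protein-coding genes also lay near it in TNF-α 1, with quartiles from -0.15 to 0.11 over classes of coding length. The share of all genes is not given for the limits of 1 and 0.25. In TNF-α 1, 49 members lay below every NC library, where 34.3% of all genes did, and 12 lay above every NC library, where 30.5% of all genes did.

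**Figure D2:**
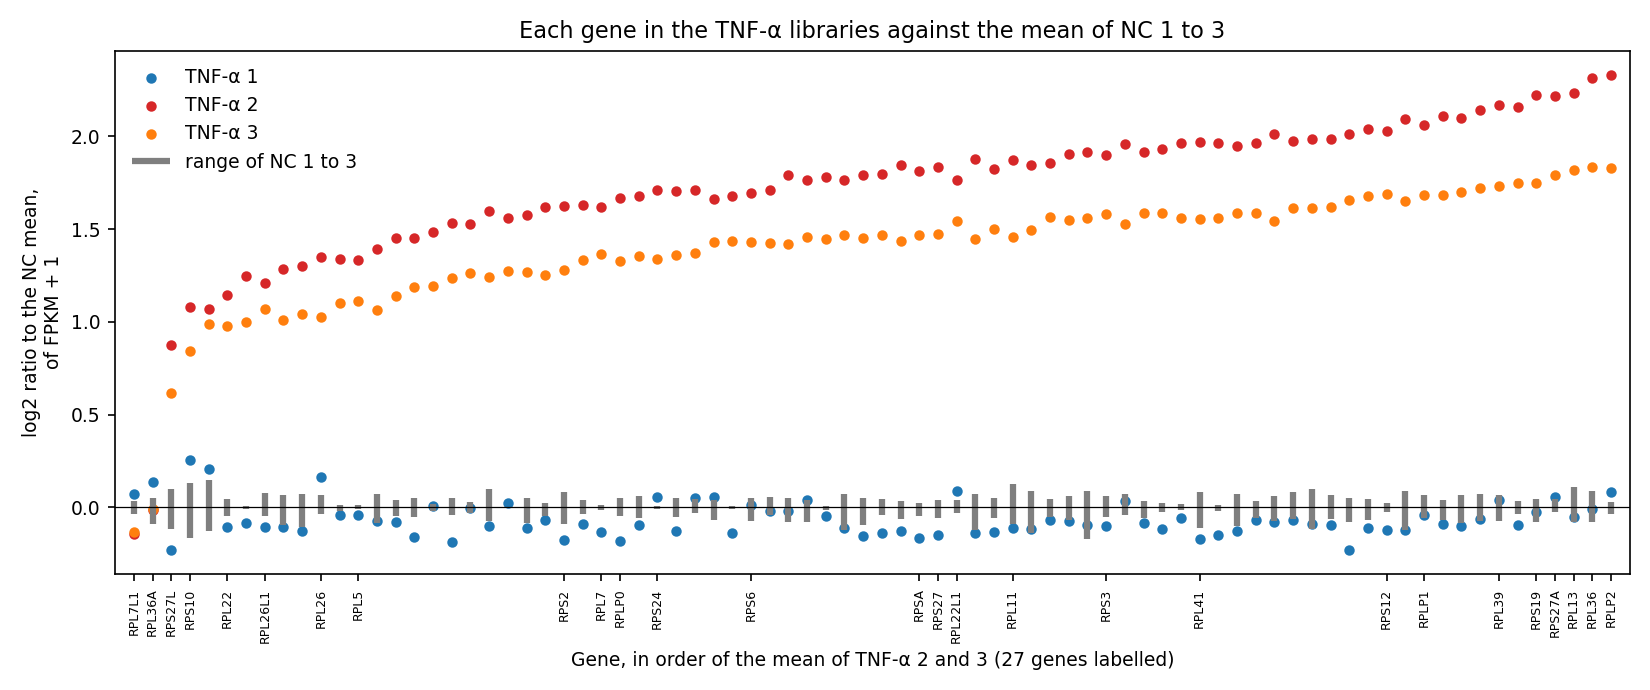
Log2 ratio of FPKM + 1 to the NC mean for each of the 80 tested genes in TNF-α 1 (blue), TNF-α 2 (red) and TNF-α 3 (orange), with the range of NC 1 to 3 as grey bars. In 78 genes TNF-α 2 and TNF-α 3 are above the grey bar and TNF-α 2 is the higher, and 79 genes have TNF-α 1 within 0.25 of 0.

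With all 6 libraries, no member passed the threshold in limma on log2(FPKM + 1), an adjusted p under 0.05 over all genes tested, against 1.01% of all genes. The members' adjusted p-values ran from 0.195 to 0.806. An unadjusted p under 0.05 was found for 12 of 80 members, all of them with a higher mean in the TNF-α group, where 12.3% of all genes were called higher at this level. limma-voom on the reads recovered from FPKM also called 0 members. The median log2 fold change was 1.05 over the members and 0.04 over all genes, from -0.07 for RPL7L1 to 1.42 for RPLP2, and 79 of 80 were above 0. The SD over the medians of the 3 TNF-α libraries was 1.00, close to the median change itself, and the median standard error of a member's fold change was 0.48. For 10 of 80 members every TNF-α library was above every NC library (14.8% of all genes), and for 0 every TNF-α library was below (15.3% of all genes).

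Among these genes were RPLP2, RPS27A, RPS7, RPS24, RPL23A, RPL9, RPL22L1, RPL26 and RPS10. In most of them TNF-α 1 was only a little above the highest NC library. RPLP2, the acidic stalk protein that together with RPLP1 recruits translation factors, stood at 131, 125 and 129 FPKM in NC and 136, 653 and 461 FPKM in TNF-α. Its log2 fold change was 1.42 with a standard error of 0.56 (limma, adjusted p = 0.195). RPS27A, which is made as a fusion with ubiquitin, had 99.1, 94.3 and 95.1 FPKM in NC and 100.1, 451 and 335 FPKM in TNF-α. RPS24 had 46.6, 46.0 and 46.3 FPKM in NC and 48.2, 154 and 119 FPKM in TNF-α. In these genes the groups did not overlap, but the gap between TNF-α 1 and the controls was small beside the distance to TNF-α 2 and TNF-α 3.

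The call rested on TNF-α 1. With TNF-α 1 left out, 78 of 80 members were called higher and 0 lower, where 42.6% of all genes were called higher. The log2 fold changes of the 78 ran from 0.75 to 2.08, their largest adjusted p was 0.000386 in limma, the median over the 80 was 1.63, and the median standard error fell to 0.11. RPL7L1 and RPL36A were the members not called. With TNF-α 1 alone against NC, the spread came from the 3 NC libraries only, and the lone library was assumed to vary like them. In that fit 0 members were called, where 6.03% of all genes were, and 3 had an unadjusted p under 0.05, where 20.3% of all genes had. The median was then -0.09, so that its sign turned.

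The largest log2 fold changes over all 6 libraries were those of RPLP2, RPL36, RPS27A, RPL13, RPS19 and RPL39, although none passed the threshold. The mean of TNF-α 2 and TNF-α 3 over the NC mean, in FPKM, was 4.33 for RPLP2, 4.30 for RPL36, 4.14 for RPL13, 4.09 for RPS27A, 4.03 for RPS19 and 3.93 for RPL39. RPS19, the gene most often mutated in Diamond-Blackfan anaemia, stood at 170, 158 and 172 FPKM in NC and at 164, 781 and 562 FPKM in TNF-α. RPL36 was at 110, 105 and 118 FPKM in NC and at 111, 558 and 399 FPKM in TNF-α. RPL39, a small protein of the exit tunnel, was at 129, 117 and 124 FPKM in NC and at 127, 558 and 412 FPKM in TNF-α. In RPS19, RPL36 and RPL39 the TNF-α 1 value lay inside the NC range, and TNF-α 2 was the highest library. All 6 genes were called when TNF-α 1 was left out, and none with all 6 libraries. Their ranking depended on a correction for GC content and gene length. After it RPLP2, RPL36 and RPS27A had log2 fold changes over all 6 libraries of 0.85, 0.70 and 1.20. RPL13, RPS19 and RPL39 had 1.10, 0.87 and 1.09, and the median over members was 0.79.

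Members with functions outside the ribosome followed the common pattern. RPS3, which also has roles in DNA repair and binds the p65 subunit of NF-κB, had 107, 98.8 and 102 FPKM in NC and 95.3, 385 and 308 FPKM in TNF-α. RPS6, the substrate of the S6 kinases downstream of mTORC1, stood at 259, 265 and 242 FPKM in NC and at 258, 828 and 690 FPKM in TNF-α. RPSA, also known as the laminin receptor, had 305, 290 and 305 FPKM in NC and 267, 1056 and 832 FPKM in TNF-α. TNF-α 1 was below every NC library for RPS3 and RPSA and inside the NC range for RPS6. RPL5 and RPL11, which join 5S rRNA and bind MDM2, differed in their ratio to NC in FPKM. RPL5 was at 135, 133 and 133 FPKM in NC and at 130, 339 and 291 FPKM in TNF-α, and RPL11 at 157, 135 and 140 FPKM in NC and at 133, 529 and 396 FPKM in TNF-α. The mean of TNF-α 2 and TNF-α 3 over the NC mean was 2.35 for RPL5 and 3.21 for RPL11. Their log2 fold changes over all 6 libraries were 0.80 and 1.07. After a correction for GC content and gene length they were nearly level, at 0.79 and 0.81.

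A few members stood outside the common pattern. RPL7L1, an RPL7 paralogue known for a part in ribosome assembly (GRCh38 chr6:42879618-42889925), stood at 44.9, 47.1 and 46.2 FPKM in NC and at 48.5, 41.5 and 41.9 FPKM in TNF-α. TNF-α 1 was above every NC library and TNF-α 2 and TNF-α 3 were below every one of them. Its log2 fold change was -0.07 with a standard error of 0.14 (limma, adjusted p = 0.699). RPL36A, on the X chromosome at 101390824-101396154, had 2.09, 2.36 and 2.40 FPKM in NC and 2.61, 2.25 and 2.25 FPKM in TNF-α, with a log2 fold change of 0.04 (standard error 0.12, limma, adjusted p = 0.806) that was -0.39 with TPM and -0.21 with limma-voom. TNF-α 2 and TNF-α 3 were within the NC range for RPL36A. RPS27L had 4.34, 4.66 and 3.86 FPKM in NC and 3.51, 8.68 and 7.09 FPKM in TNF-α. Its mean over TNF-α 2 and TNF-α 3 was 1.84 times the NC mean in FPKM, the smallest ratio among the 78 members called without TNF-α 1. After a correction for GC content and gene length, RPS27L no longer stood apart. Its log2 fold change over all 6 libraries was then 0.82, where the median over members was 0.79. RPL7L1 and RPL36A stayed below that median, at 0.20 and 0.04.

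RPS10, RPL36A and RPS27L were among the lowest tested members by mean FPKM. RPS10 had 0.728, 0.504 and 0.845 FPKM in NC and 1.02, 2.57 and 2.03 FPKM in TNF-α, which is 39 reads in NC 2 and 157 reads in TNF-α 2. RPL17 was at 0.774, 0.717 and 0.593 FPKM in NC and at 0.543, 1.14 and 1.24 FPKM in TNF-α, and it missed the filter because only TNF-α 2 and TNF-α 3 reached 1. In the annotation 39.4% of the exonic bases of RPS10 and 35.3% of those of RPL17 are shared with another gene. The readthrough genes RPS10-NUDT3, RPL36A-HNRNPH2 and RPL17-C18orf32 were at 0 reads in all 6 libraries. The use of strand and the treatment of shared reads in counting are not given in the sources used here, so the levels of these genes are uncertain. The part of overlap in them was not tested.

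Among the other members not tested, RPL3L, a paralogue of striated muscle, was at or below 0.0299 FPKM, and RPL10L and RPL39L, known from the testis, were at 0 reads in every library. At 0 reads, 3 reads is the limit that counting error allows in a library. Exonic overlap with another gene exceeded 10% for 19 tested members, with 55.5% for RPL10. Ribosomal protein genes also have many processed pseudogenes, and 1144 of these were in the table, among them 91 of RPL23A and 74 of RPSA. Their reads were 3.05 to 3.39% of the members' reads in every library, so that this share was nearly constant. How reads were shared between a member and its copies in counting is not known.

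The paralogues allowed a comparison within each library, as the FPKM ratio of paralogue to partner, which the library total cannot change. Of 4 pairs that could be tested, no difference passed an exact two-sided permutation test, for which 3 libraries against 3 cannot give a p below 0.1. RPL22L1 over RPL22 was 1.00, 0.988 and 0.985 in NC and 1.15, 1.54 and 1.49 in TNF-α. All 3 TNF-α libraries were above all NC libraries, with a log2 difference of 0.48 (exact permutation p = 0.1, Benjamini-Hochberg 0.2 over 4 pairs). The separate levels were 12.7, 13.3 and 12.9 FPKM for RPL22L1 in NC and 13.8, 46.4 and 39.7 FPKM in TNF-α, and 12.6, 13.5 and 13.1 against 12.1, 30.1 and 26.6 FPKM for RPL22.

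RPL26L1 over RPL26 went the other way, at 2.45, 2.43 and 2.45 in NC and 1.98, 2.09 and 2.40 in TNF-α. The 3 TNF-α libraries were below all NC libraries, with a log2 difference of -0.18 (exact permutation p = 0.1, Benjamini-Hochberg 0.2). RPL26 was at 5.90, 5.88 and 6.40 FPKM in NC. It has 14.3% of its exonic bases in common with another gene, so this ratio is uncertain as well. RPS27L over RPS27 was 0.0200, 0.0230 and 0.0181 in NC and 0.0184, 0.0115 and 0.0121 in TNF-α (exact permutation p = 0.2, Benjamini-Hochberg 0.267). The order of this pair depended on a correction for GC content and gene length, in which the partners differ. Log2 fold changes over all 6 libraries were 0.42 for RPS27L and 1.05 for RPS27 without it, and 0.82 and 0.70 with it. The other pairs kept their order. RPL7L1 over RPL7 was 0.431, 0.462 and 0.450 in NC and 0.518, 0.130 and 0.157 in TNF-α (exact permutation p = 0.4, Benjamini-Hochberg 0.4). TNF-α 2 and TNF-α 3 were below every NC library in both of these ratios, and TNF-α 1 was within the NC range for RPS27L over RPS27 and above it for RPL7L1 over RPL7.

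Taking each gene's log2 ratio minus the median of the members in the same library removes what the members share. On this scale 8 members were higher in every TNF-α library than in every NC library, where 1.21% of all genes were, namely RPL19, RPS15, RPLP1, RPS19, RPLP2, RPL39, RPL36 and RPS27A. A further 6 were lower, where 18.0% of all genes were, namely RPS2, RPLP0, RPL27, RPL7, RPS3A and RPS15A. Both shares over all genes are set by the centring on the members and are no reference for these counts. In TNF-α 1, RPLP1 and RPL19 cleared NC narrowly, at 0.0467 and 0.0226 against at most 0.0445 and 0.0189. The centring keeps any dependence on GC content or length. After a correction for GC content and gene length, RPL36 and RPL19 had log2 fold changes of 0.70, below the members' median of 0.79. RPL7, one of the 6 lower, had 0.83. RPLP1, RPS19, RPLP2, RPL39 and RPS27A stayed above 0.79, and RPS2 and RPLP0 below it. RPLP2 was 0.17, 0.54 and 0.38 above the member median in TNF-α 1, 2 and 3, against 0.01, 0.02 and -0.02 in NC. RPLP0, the core of the stalk, was -0.09, -0.13 and -0.12 from it in TNF-α and -0.03, 0.01 and 0.03 in NC. RPS3A was -0.07, -0.34 and -0.26 from it in TNF-α. Within the stalk RPLP1 and RPLP2 lay above the member median and RPLP0 below it in all 3 TNF-α libraries. For log2 fold changes over all 6 libraries, this order depended on the correction. It was kept after that for GC content and gene length, where RPLP0, RPLP1 and RPLP2 had 0.64, 0.98 and 0.85 and the member median was 0.79. After that for GC content and coding length, chosen after values had been seen, it was lost. There the 3 genes had 0.58, 0.58 and 0.56 and the member median was 0.50. RPL27A, RPS26 and RPS27 were among the members with the smallest spread around the member median, with an SD over libraries of 0.03 each.

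The members are short genes, and short genes differed as a class in TNF-α 2 and TNF-α 3. Their longest coding sequences ran from 75 to 1281 bases with a median of 473, against a median of 1425 for all tested protein-coding genes. In other protein-coding genes with coding sequences of up to 300 bases (n = 171), the log2 ratio had a median of -0.04, 1.18 and 0.99 in TNF-α 1, 2 and 3. It was 0.72 and 0.62 in TNF-α 2 and 3 at 451 to 600 bases (n = 614), 0.25 and 0.22 at 901 to 1500 bases (n = 2890), and -0.81 and -0.74 over 3000 bases (n = 1518). In those libraries the ratio of other genes was thus lower in each longer class.

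The members stood above other genes of their own length class. At up to 300 bases the 10 members had medians of 1.92 and 1.5 in TNF-α 2 and 3. At 451 to 600 bases 21 members had 1.92 and 1.56, and at 601 to 900 bases 23 members had 1.68 and 1.36, where other genes had 0.59 and 0.48 (n = 1398). In TNF-α 1 the members of these classes had medians from -0.12 to -0.07, and the other genes from -0.04 to -0.02.

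GC content and coding length together accounted for 54.4 and 53.3% of the variance of the log2 ratio over genes in TNF-α 2 and TNF-α 3, and for 1.35% in TNF-α 1, while for NC 1, 2 and 3 against the NC mean the shares were 5.75, 27.5 and 35.4%. After a correction for both, chosen after values had been seen, the median over members was -0.07, 0.86 and 0.68 in TNF-α 1, 2 and 3. With a correction for GC content and gene length it was -0.09, 1.35 and 1.10. The part of RNA quality or library preparation in this dependence on length was not tested. Among the members themselves, the mean log2 ratio of TNF-α 2 and TNF-α 3 had a Spearman's rho of 0.47 with GC content, -0.25 with coding length and 0.36 (n = 65) with the length of the C and T run, all given as descriptions over genes of the same libraries. Its median was 1.66 in the 49 tested members with a run of at least 8 bases and 1.38 in the 16 with a shorter run.

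**Figure D3:**
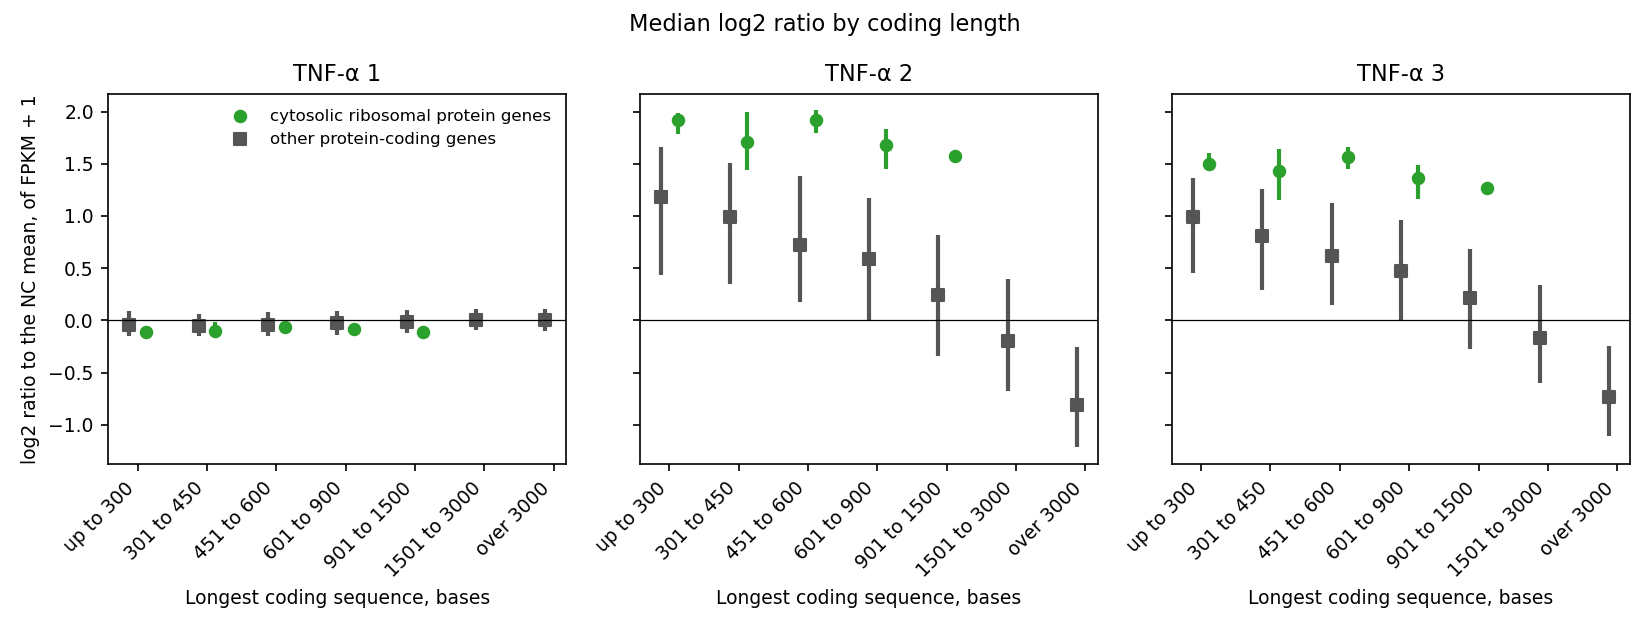
Median log2 ratio of FPKM + 1 to the NC mean by length of the longest coding sequence, for cytosolic ribosomal protein genes (green circles) and other protein-coding genes (grey squares) in TNF-α 1, 2 and 3, with lines from the 25th to the 75th percentile. In TNF-α 2 and TNF-α 3 the grey medians fall from 1.18 and 0.99 in the shortest class to -0.81 and -0.74 in the longest, and the lowest green median is 1.58 in TNF-α 2 and 1.27 in TNF-α 3.

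Other genes of the translation machinery are given from lists written by hand, and none of their genes passed the threshold with all 6 libraries. The 76 tested mitochondrial ribosomal protein genes, which serve the separate ribosome of that organelle and are not known as TOP messages, had median log2 ratios of -0.06, 1.20 and 1.07 in TNF-α 1, 2 and 3. Of these, 74 were above every NC library in TNF-α 2 and TNF-α 3 (46.1% of all genes), and 12 had an unadjusted p under 0.05 (24.2% of all genes in either direction). The ribosomal proteins outside the name rule and the 40S partner RACK1 followed the members, with medians of -0.05, 1.89 and 1.55 over 4 genes. FAU, which encodes a ubiquitin-like protein fused to a small subunit protein, had 82.2, 77.0 and 81.7 FPKM in NC and 77.4, 362 and 282 FPKM in TNF-α. Its levels in TNF-α 2 and TNF-α 3 were above every NC library.

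Translation factors had smaller medians. The 19 tested factors and other genes known for TOP messages had medians of 0.03, 0.66 and 0.60. EEF1A1, which delivers aminoacyl-tRNA to the ribosome, was at 1029, 995 and 1009 FPKM in NC and at 1054, 2004 and 1836 FPKM in TNF-α. EEF2, the translocation factor, had 917, 875 and 1086 FPKM in NC and 1013, 1323 and 1285 FPKM in TNF-α. Both were highest in TNF-α 2. Over all 6 libraries the median log2 fold change of the TOP factors was 0.43, but -0.065 with TPM, which moves the median of all genes to -0.42, and -0.023 with quantile normalization. EEF2 had a log2 fold change of 0.33 that turned to -0.18 with TPM and to -0.46 with quantile normalization, and EEF1A1 one of 0.64 that turned to -0.21 with quantile normalization. The 27 other initiation, elongation and release factors had medians of 0.06, 0.58 and 0.44. The long noncoding hosts of snoRNAs, several of which are known TOP messages without a protein product, had medians of 0.11, 1.47 and 1.28 over 13 genes. Their median log2 fold change over all 6 libraries was 0.92. With quantile normalization it was 0.73, above the members' 0.41.

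Ribosome biogenesis factors were mostly above NC in TNF-α 1 as well. Their 39 tested genes had medians of 0.17, 0.77 and 0.70 in TNF-α 1, 2 and 3. In TNF-α 1, 27 of 39 were above every NC library (30.5% of all genes), and 12 of 80 members were. Every TNF-α library was above every NC library in 23 of 39 (14.8% of all genes), and 19 had an unadjusted p under 0.05 (24.2% of all genes). Their median log2 fold change over all 6 libraries was 0.58, and it was 0.081 with TPM and 0.21 with quantile normalization. The 14 genes of RNA polymerase I and its factors had medians of 0.11, 0.31 and 0.33, with 7 above every NC library in TNF-α 1. The 14 genes of mTORC1, MYC and TOP message control had medians of -0.02, 0.33 and 0.31. With TPM the median log2 fold change turned from 0.29 to -0.17 in the polymerase I list, from 0.20 to -0.28 in the mTORC1 and MYC list and from 0.34 to -0.15 in the other translation factors.

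MYC, a transcription factor known to drive ribosome synthesis, had a higher FPKM in all 3 TNF-α libraries and did not follow the members' order. Its level was 21.9, 21.9 and 23.6 FPKM in NC and 34.9, 30.2 and 33.1 FPKM in TNF-α, with TNF-α 1 the highest. The log2 fold change was 0.52 with a standard error of 0.13 (limma, adjusted p = 0.164). It was 0.038 with TPM, 0.013 after the GC content and gene length correction, 0.17 after the GC content and coding length correction, 0.25 with quantile normalization and 0.27 with limma-voom, so that its size depended on the scaling. The difference between lists was not tested.

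**Figure D4:**
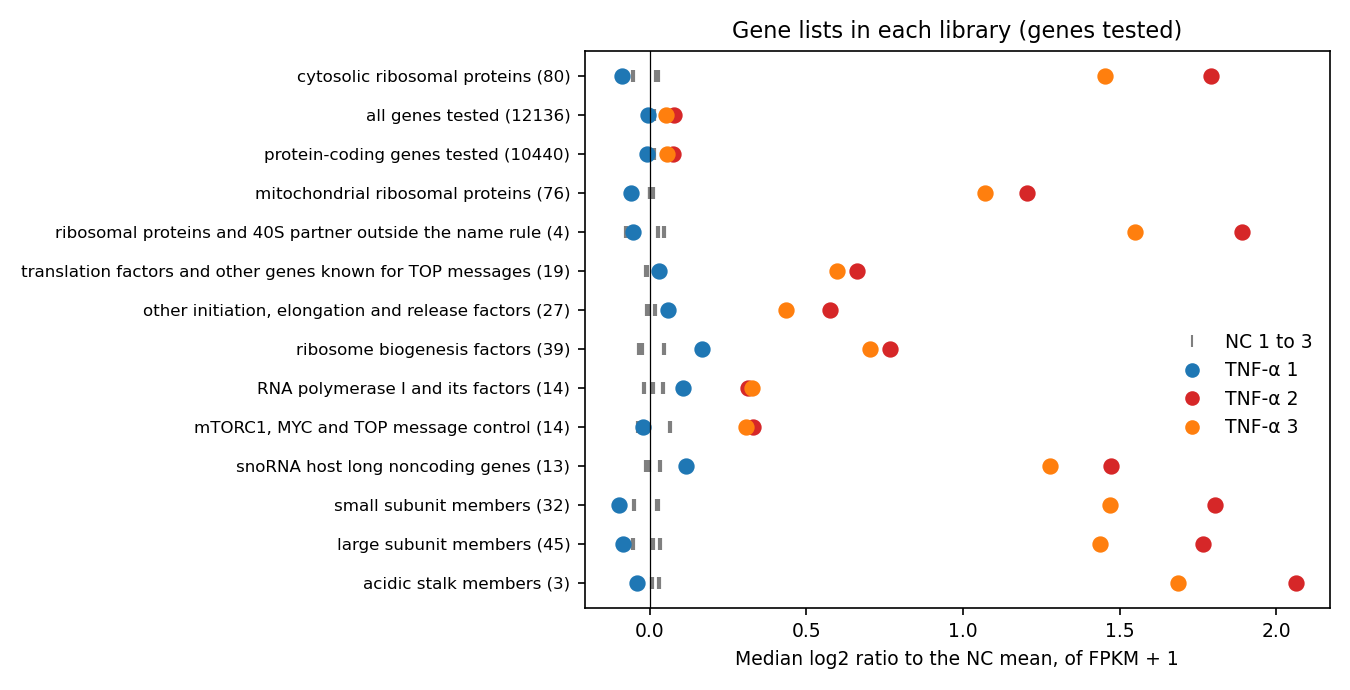
Median log2 ratio of FPKM + 1 to the NC mean for each gene list and library, with NC 1 to 3 as grey ticks and TNF-α 1, 2 and 3 as blue, red and orange points, and the number of genes tested in brackets. In TNF-α 2 and TNF-α 3 the cytosolic ribosomal proteins stand at 1.79 and 1.45, the mitochondrial ones at 1.20 and 1.07, and in TNF-α 1 the biogenesis factors stand at 0.17.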

How the data were processed

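RNA-seq was analysed in 6 libraries of the cell line U251, 3 NC and 3 TNF-α, grouped by sample title. RNA was captured with oligo(dT) beads and libraries were made with a NEBNext Ultra kit. The submitters' processing notes name HISAT2 2.0.5, StringTie 1.3.3b, featureCounts 1.5.0, GATK 3.7, DESeq2 and edgeR, without roles, and the use of strand in counting is not given in the sources used here. The authors deposited FPKM, 1 column per library without pooling. All 58735 genes had the positions and merged exon lengths of GENCODE 29 (GRCh38). A further 6 columns of per-sample values match no sample described here and were not used.

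Reads were recovered as FPKM times gene length over the value of 1 read, and 100% of values came out whole within 0.1. The count of reads, and intervals from it, cover counting error only.

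Genes that reached 1 FPKM in 3 or more libraries were tested as log2(FPKM + 1), a scale that understates changes of low genes, with limma 3.58.1 in R 4.3.3 (lmFit, eBayes with trend, two-sided, Benjamini-Hochberg over 12136 genes, threshold 0.05), after a test on simulated data. Genes named were the 6 members highest and the 6 lowest in mean FPKM, the 6 with the largest and the 6 with the smallest log2 fold change, the 4 with the largest and the 4 with the smallest spread around the member median, members past the threshold (at most 10), paralogues with partners, a fixed set of members (RPS3, RPS6, RPL5, RPL11, RPSA, RPLP0, RPLP1, RPLP2, RPL41), FAU, RACK1, RPL36AL, EEF1A1, EEF2 and MYC. A few items of these sets are not reported here. RPS7, RPS24, RPL23A, RPL9 and the members set against the member median were named after their values were seen. The members and lists were chosen with earlier results of these data known. Alternatives changed the pseudocount, filter, scaling, test, pairing, composition and libraries. Python 3.11.15, numpy 2.4.6, pandas 2.3.3 and matplotlib 3.10.9 were used.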

Additional observations from a re-analysis of the deposited data

How the results depend on the processing

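No member passed the threshold under any alternative but one, the fit without TNF-α replicate 1, which called 78 members higher and 0 lower. Leaving out 1 library at a time gave 0 to 78 members called higher, medians from 0.69 to 1.63, and 10 to 79 members whose groups did not overlap, each upper value being that without TNF-α replicate 1. The 79 joins both directions. In that fit 78 members were above every NC library, where 46.1% of all genes were, and RPL7L1 was below. The share over all genes is not given for the other counts without 1 library. The median log2 fold change of the members was 1.05 and stayed between 1.01 and 1.07 with other pseudocounts, filters, median centring, eBayes options or protein-coding genes only. It was 0.56 with TPM and 0.80 with limma-voom on reads, where the median of all genes was -0.42 and -0.21, so that the members stood 0.98 and 1.02 above it. It was 0.41 with quantile normalization, 0.79 after correction for GC content and gene length, and 0.50 after correction for GC content and coding length, an alternative added after seeing the data. The count of members whose groups did not overlap was 10, all higher (14.8% of all genes), and was 5 with TPM and 6 with limma-voom. The share over all genes is not given for the 5 and the 6. With TNF-α replicate 1 alone the count was 61, which joins both directions, and the median was -0.088. Of the 61, 49 were below every NC library (34.3% of all genes) and 12 above (30.5% of all genes). The count of genes called was 123 in all, and it was 58 with TPM, 58 with every gene above 0, 185 with quantile normalization, 77 with limma-voom, 79 at an FPKM of at least 5, 270 and 442 after the 2 corrections, and 10 to 42 without 1 library other than TNF-α replicate 1.
Same-numbered libraries had correlations of -0.01, -0.18 and 0.12 in their deviations from the group mean. With 3 libraries a group and TNF-α 1 apart from the others, these values cannot decide whether the numbers pair libraries. With the replicate number as a block 0 members and 24 genes were called, and the median stayed at 1.05. The block with the GC content and gene length correction called 0 members and 45 genes.
Signs turned in few genes under scaling, and their cause was not tested. With TPM these were EEF2 (-0.18), RPL36A (-0.39) and RPS27L (-0.014), with quantile normalization EEF1A1 (-0.21) and EEF2 (-0.46), with median centring RPL36A (-0.0091), and with limma-voom RPL36A (-0.21). EEF2 (-0.15) and RPL7L1 (0.20) turned after the GC content and gene length correction, with the replicate block or without, and RPL36A (-0.33) after the GC content and coding length correction. RPL36A ranged from -0.012 to 0.064 over fits without 1 library. With TNF-α replicate 1 alone, log2 fold changes turned in RPS27L (-0.23), RPLP0 and RPS2 (-0.18), RPL41 and RPSA (-0.17), RPS27 (-0.15), RPL7, RPS26 and RPL27A (-0.13), RPS12 (-0.12), RPL11, RPL3 and RPL26L1 (-0.11), RPL22 and RPS3 (-0.10), RPL13A (-0.097), RPL15 (-0.086), RPL10 (-0.075), RPL19 (-0.065), RACK1 (-0.058), FAU (-0.052), RPL36AL (-0.051), RPL13 (-0.049), RPL5 (-0.043), RPLP1 (-0.041), RPS19 (-0.023), RPL36 (-0.0059), RPL7L1 (0.072). The limits are those of 3 libraries a group, and for the low members RPS10 and RPL36A also those of counting error.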
